A study of Mus musculus with 4 samples.

Results

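The genes described here are 10 targets and inhibitors of the ERK branch of MAP kinase signalling: the phosphatase genes Dusp4, Dusp5 and Dusp6, the Sprouty genes Spry1, Spry2 and Spry4, the ETS transcription factor genes Etv1, Etv4 and Etv5, and Phlda1. They were chosen by name, as genes whose transcripts are commonly used to read ERK output, and their probes were found by matching the accession of each non-control probe to mouse RefSeq genes. Of the 41174 probes on the array, 12 were matched to 9 of the 10 genes. Dusp5 had no matched probe and was not analysed here. The RNA came from mammary gland tissue, still pre-neoplastic, of female mice at 13 weeks. All mice carried Δ16HER2, an exon-skipping variant of human HER2 (ERBB2), a receptor tyrosine kinase that needs no ligand to signal and drives mammary tumours. The promoter of this transgene is not given in the sources used here. One group was labelled WT for stathmin (WT 1 and WT 2) and the other STM KO (KO 1 and KO 2), which leaves 2 arrays per group and 1 comparison. Stathmin, the product of Stmn1, destabilises microtubules. Nothing in the labels says that the samples came from separate animals, so each p-value measures only the spread between these samples, which may be technical.

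When a receptor tyrosine kinase such as HER2 is active, RAS, RAF and MEK pass the signal to ERK, and ERK switches on genes of 2 kinds. Some carry the response forward, such as the PEA3-class ETS factors Etv1, Etv4 and Etv5. Others limit it, such as the dual-specificity phosphatases, which remove phosphate from ERK, and the Sprouty proteins, which act between the receptor and RAF. In the mammary gland ERK signalling downstream of ERBB and FGF receptors takes part in branching of the ducts, and Etv4 (also called PEA3) is known for its expression in HER2-driven mammary tumours.

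The regulatory DNA of these genes gives context for the values. RefSeq (GRCm38.p6) windows of 250 bases before a transcription start were read for 6 members, Dusp5, Dusp6, Etv1, Etv5, Spry1 and Spry2, of which Etv1 and Etv5 have 2 starts each. Those shown are for the members with an unadjusted p under 0.05 in the comparison below (Etv1 and Etv5) and for Dusp6, the ERK-specific phosphatase gene. Each runs 5′ to 3′ on the strand of the gene and ends at the base before the start. Capitals mark AGGAAG, which holds the core GGAA that ETS factors bind, and the octamers TGAATGAA, TGAATGAG, TGAATGGA and TGAATGGG, the kind of site bound by capicua (Cic), the repressor that ERK inactivates. Both strands were searched, so AGGAAG on the opposite strand appears as CTTCCT and TGAATGGG as CCCATTCA. The Etv1 window is chr12:38779832-38780081 (+), the Etv5 window, at the downstream of its 2 starts, is chr16:22438369-22438618 (-), and the Dusp6 window is chr10:99262981-99263230 (+).
Etv1: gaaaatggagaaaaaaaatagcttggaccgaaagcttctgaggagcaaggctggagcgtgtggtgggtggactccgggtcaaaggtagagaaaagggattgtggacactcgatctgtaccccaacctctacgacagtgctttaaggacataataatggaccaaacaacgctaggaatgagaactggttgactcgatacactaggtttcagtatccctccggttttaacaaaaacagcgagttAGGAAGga
Etv5: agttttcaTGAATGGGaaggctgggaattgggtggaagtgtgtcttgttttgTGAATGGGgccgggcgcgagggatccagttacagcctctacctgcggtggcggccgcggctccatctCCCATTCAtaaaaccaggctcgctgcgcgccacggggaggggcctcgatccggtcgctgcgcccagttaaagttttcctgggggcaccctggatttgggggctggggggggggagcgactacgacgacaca
Dusp6: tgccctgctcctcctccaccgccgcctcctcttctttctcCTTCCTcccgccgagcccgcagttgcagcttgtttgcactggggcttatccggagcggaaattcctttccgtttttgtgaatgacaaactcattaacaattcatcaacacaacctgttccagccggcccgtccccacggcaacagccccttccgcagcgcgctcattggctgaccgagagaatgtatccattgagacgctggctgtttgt
The Etv5 window held 3 capicua octamers, beginning 242, 198 and 131 bases before the start. Of all 32851 RefSeq windows of this length, 3.86% held at least 1 such octamer and 0.0426% held 3 or more. The Etv1 window held AGGAAG 8 bases before its start and the Dusp6 window held it 210 bases before its start, a motif found in 29.5% of all windows. The other starts of Etv1 and Etv5 and the windows of Spry1 and Spry2 held neither motif. A further motif, TGAGTCA, was also searched and was found in 0 of the 8 member windows, against 4.46% of all windows. The Dusp5 window, whose gene has no values here, held AGGAAG and 1 octamer. These matches describe the letters in the windows, and binding was not measured.

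Levels below are log2 of the background-subtracted signal minus log2 of the 75th percentile of that array, so a level of 0 is a signal equal to that percentile. Differences are knockout minus wild type in these log2 units. A probe counted as detected when the scanner software called it well above background. It was tested if both WT or both KO arrays detected it, which held for 24183 probes, among them 13234 genes named by their brightest probe. Of the 12 member probes 9 were tested, for 8 genes: Dusp4, Dusp6, Spry1, Spry2, Etv1, Etv4, Etv5 and Phlda1. Spry4 was not tested because neither of its probes was detected on both arrays of a group.

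The arrays themselves set several limits. Between 54.7% and 66.2% of non-control spots were well above background, no spot was saturated, and array pairs correlated across tested probes at Pearson r from 0.963 to 0.975. The 75th percentile signal ran from 144 to 291 and was highest on KO 1. Of 10 luminal epithelium markers (Krt8, Krt18, Epcam and the like) all 10 were detected on all 4 arrays, and adipocyte (9 of 9 with a usable probe) and skeletal muscle markers (10 of 10) were detected as well, so RNA of several tissues was present, although a label gives the histotype as epithelial. In such tissue fewer cells of a type and less RNA per cell cannot be told apart. KO 2 stood apart by lymphocyte markers: the summed signal of 8 B cell markers, in units of the 75th percentile, was 0.891 and 0.749 in WT, 0.640 on KO 1 and 25.6 on KO 2. The 8 T cell markers summed to 0.925, 0.787, 0.883 and 19.4 in the same order. The brighter Stmn1 probe was detected on all arrays and overlapped between groups (levels of 5.59 and 3.59 in WT, 4.56 and 3.34 in KO; a difference of -0.64, or 0.36 to -1.64 with 1 array left out). The dimmer one was detected on WT 1 alone (-1.13, against -3.39, -5.71 and -5.05), and where these probes lie relative to the deletion is not given in the sources used here. The groups are therefore called by their labels.

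**Figure D1:**
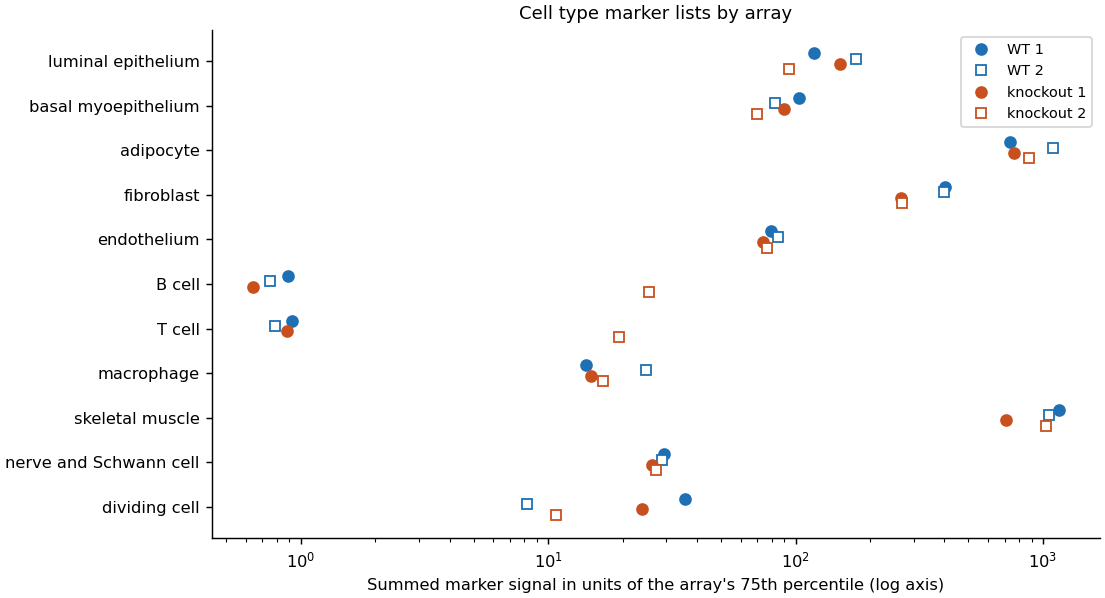
Summed signal of 11 cell type marker lists on each array, in units of the array's 75th percentile, on a log axis; each point is 1 array (blue, wild type; orange, knockout; filled circles, replicate 1; open squares, replicate 2). The B and T cell lists are high on KO 2 alone (25.6 and 19.4), the fibroblast list is lower on both KO arrays (266 and 269) than on both WT arrays (401 and 399), and the dividing cell list is highest on WT 1 and KO 1.

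No member passed an adjusted p of 0.05 (limma, Benjamini-Hochberg over the tested probes). Neither did any other gene: 0 of 13234 genes passed (0.0%), while 469 of them (3.54%) had an unadjusted p under 0.05. Etv1 and Etv5 were the members below that unadjusted threshold, both lower in KO, where 2.4% of all genes lay on that side and 1.14% on the other. Etv5 stayed below it in 4 of 9 other analyses of all arrays and Etv1 in 9 of 9. The tested members had a median log2 difference of -0.50, against -0.0056 over all tested genes. Cell type markers reached similar medians: -0.51 for fibroblast, -0.39 for skeletal muscle and -0.36 for luminal epithelium. The marker medians above 0 were those of adipocyte (0.16), B cell (2.16) and T cell (2.25). The KO values were both lower than the WT values for 4 of the 8 tested members (Dusp6, Spry2, Etv1 and Etv5) and both higher for Dusp4. Over all genes those shares were 17.7% and 17.8%. A difference below 0 was seen for 5 of the 8 tested members, against 50.7% of all genes. Since the members are few, were named with earlier results in view and exclude the untested Spry4, these counts describe the 8 genes and carry no test.

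**Figure D2:**
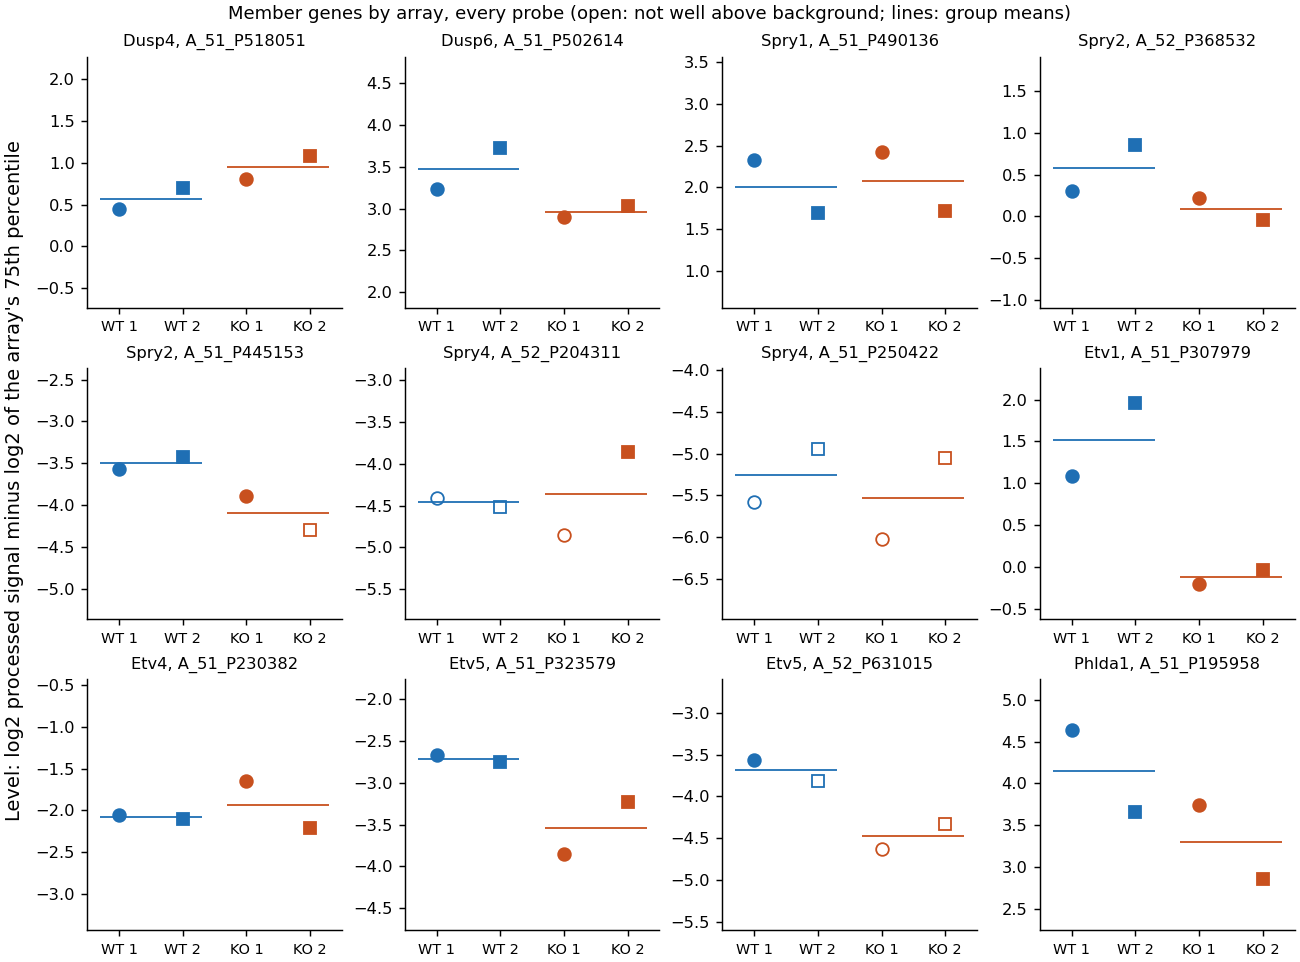
Level of every member probe on each array (vertical axis, log2 signal minus log2 of the array's 75th percentile; each panel spans the same 3 log2 units; blue, wild type; orange, knockout). Filled points were well above background, open points were not, and lines are group means of 2 arrays. Etv1 reads 1.09 and 1.96 in WT and -0.20 and -0.04 in KO, the widest separation among the probes.

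The phosphatases lay on opposite sides of 0, and neither passed the test. Dusp6, a cytoplasmic phosphatase specific for ERK, had levels of 3.24 on WT 1, 3.72 on WT 2, 2.90 on KO 1 and 3.03 on KO 2. Both KO arrays were lower, yet the gap between the closest arrays of the groups was smaller than the gap between the WT arrays. Its log2 difference was -0.52 ± 0.28 (SE, n = 2 per group; 95% interval -1.23 to 0.20; limma adjusted p = 0.935), or -0.27 without WT 2. Dusp4, a nuclear phosphatase that ERK induces, had levels of 0.45 and 0.70 in WT and 0.81 and 1.09 in KO. Here the KO arrays were the higher ones, by 0.38 ± 0.26 (SE; 95% interval -0.28 to 1.04; limma adjusted p = 0.935). With another background correction (normexp) the Dusp4 difference was 0.052. Dusp4 read 0.24 above wild type without KO 2, the array with high lymphocyte markers, and Dusp6 read -0.58.

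Among the Sprouty genes, which encode inhibitors of receptor tyrosine kinase signalling, Spry2 was lower in KO on each of its 2 probes. The brighter Spry2 probe read 0.31 and 0.85 in WT, 0.22 on KO 1 and -0.04 on KO 2. WT 1 and KO 1 lay 0.09 apart on that probe, and the groups did not overlap. The difference was -0.49 ± 0.30 (SE; 95% interval -1.25 to 0.27; limma adjusted p = 0.935). The dimmer probe read -3.57, -3.43, -3.90 and -4.30 in the same order, a difference of -0.60 ± 0.27 (SE), and was not detected on KO 2. The 2 probes thus gave the same direction and similar sizes. Without WT 2 the brighter probe's difference was -0.22.

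For Spry1 the spread inside each group exceeded the difference between them. Its levels were 2.33 on WT 1, 1.69 on WT 2, 2.43 on KO 1 and 1.72 on KO 2, so 1 array of each group was high and the other low. The difference of 0.07 ± 0.38 (SE; 95% interval -0.88 to 1.02; limma adjusted p = 0.986) turned to -0.25 without WT 2 and to -0.29 without KO 1. The dividing cell markers (10 genes, 7 of them detected on all arrays) were also high on WT 1 and KO 1, with summed signals of 35.8 and 24.0 against 8.21 on WT 2 and 10.8 on KO 2. Their part in the Spry1 values was not tested. Spry4 was at the edge of detection. Its brighter probe read -4.41, -4.51, -4.85 and -3.86 across WT 1, WT 2, KO 1 and KO 2 and was detected on KO 2 alone, the array with lymphocyte signal. The other Spry4 probe was detected on no array, with an estimated signal error of 61.1% to 99.7%, so no fold is given for Spry4.

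The ETS factor Etv1 had the largest difference of the tested members, though it did not pass the adjusted threshold. This PEA3-class factor, also called ER81, gave signals of 407 on WT 1, 560 on WT 2, 254 on KO 1 and 156 on KO 2, with an estimated error of at most 10.1% for each signal. On the scaled levels it read 1.09 and 1.96 in WT and -0.20 and -0.04 in KO. The KO arrays lay close together, and the lower WT array stood above both. The difference was -1.64 ± 0.36 (SE; 95% interval -2.55 to -0.73), a 3.12-fold higher level in WT, with an unadjusted p of 0.00533 and an adjusted p of 0.935 in limma. By the size of the difference Etv1 ranked 54 from the lowest of 13234 genes, and 0.748% of genes differed by as much in either direction. Leaving out 1 array at a time gave differences from -2.07 (without WT 1) to -1.21 (without WT 2), and -1.72 without KO 2. Other scalings and background corrections gave -1.65 to -1.38.

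Of the 11 marker lists, 4 had a lower summed signal on both KO arrays than on both WT arrays. The summed signal of 10 fibroblast markers was 401 and 399 in WT and 266 and 269 in KO. Both KO arrays were lower for 8 of these 10 genes, against 17.7% of all genes, and both were higher for Mfap5. Skeletal muscle markers summed to 1164 and 1059 in WT and to 707 and 1026 in KO. Nerve and Schwann cell markers (8 listed, 7 detected on all arrays, Ncmap on none) summed to 29.4 and 28.9 against 26.3 and 27.3, and 10 endothelial markers to 79.9 and 85.2 against 73.8 and 77.0. The summed signals did not overlap for these 4 lists, though narrowly so for all but the fibroblast list. Both KO arrays were lower for 6 of 10 skeletal muscle genes and 3 of 10 endothelial genes. Among nerve and Schwann cell genes this held for 4 of 7 tested, while both were higher for Mbp. The part of these lists in the Etv1 and Etv5 differences was not tested. Set against the mean of the luminal markers, a choice made after seeing the data, the Etv1 difference was -1.31 and that of Etv5 -0.50. That mean was low on KO 2 alone, the array with high lymphocyte markers (levels of 1.53 and 1.74 in WT, 1.69 on KO 1 and 0.92 on KO 2). The luminal epithelium markers overlapped between groups (118 and 175 against 151 and 93.9), as did the basal markers (104 and 82.8 against 90.0 and 70.0), the adipocyte markers (739 and 1101 against 766 and 877) and the macrophage markers (14.2 and 24.9 against 14.9 and 16.7).

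Etv5, the PEA3-class factor also called ERM, was dim but lower on both KO arrays. Its brighter probe read -2.67 and -2.75 in WT, -3.85 on KO 1 and -3.23 on KO 2. The wild-type values nearly coincided and the knockout values spread by more. The difference was -0.83 ± 0.30 (SE; 95% interval -1.60 to -0.063), with an unadjusted p of 0.0387 and an adjusted p of 0.935 in limma. These signals, 17.0 to 30.0, carried estimated errors of 15.1% to 21.6%, and the difference was -0.37 with normexp background correction and -0.52 without KO 1. The dimmer probe read -3.57, -3.81, -4.63 and -4.33 and was detected on 1 of the 2 WT arrays and on no KO array. No fold is given for it.

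Etv4, the remaining PEA3-class factor, overlapped between the groups. It read -2.06 and -2.10 in WT, -1.65 on KO 1 and -2.21 on KO 2. The WT arrays agreed within 0.04, and the KO arrays fell on either side of them. The difference of 0.15 ± 0.29 (SE; 95% interval -0.59 to 0.89; limma adjusted p = 0.960) turned to -0.13 without KO 1. Of the 3 ETS members, then, Etv1 and Etv5 had separate groups and Etv4 did not, and whether their differences differ from each other was not tested.

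Phlda1, a phosphoinositide-binding protein gene that ERK signalling induces, had signals of 4765 on WT 1, 1821 on WT 2, 3893 on KO 1 and 1159 on KO 2. Its levels were 4.64, 3.66, 3.74 and 2.86 in that order. The spread within each group, 0.98 between the WT arrays and 0.88 between the KO arrays, was as wide as the difference between the groups, and WT 2 lay below KO 1. That difference was -0.85 ± 0.47 (SE; 95% interval -2.04 to 0.34; limma adjusted p = 0.935). It was -0.36 without WT 1, -0.41 without KO 2, -1.29 without KO 1 and -1.34 without WT 2, so its size rested on single arrays. Within each group Phlda1 was higher on replicate 1, as Spry1 and the dividing cell markers were. Unlike those, its levels on KO 1 and WT 2 nearly coincided (3.74 and 3.66). The part of dividing cells in the Phlda1 values was not tested.

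**Figure D3:**
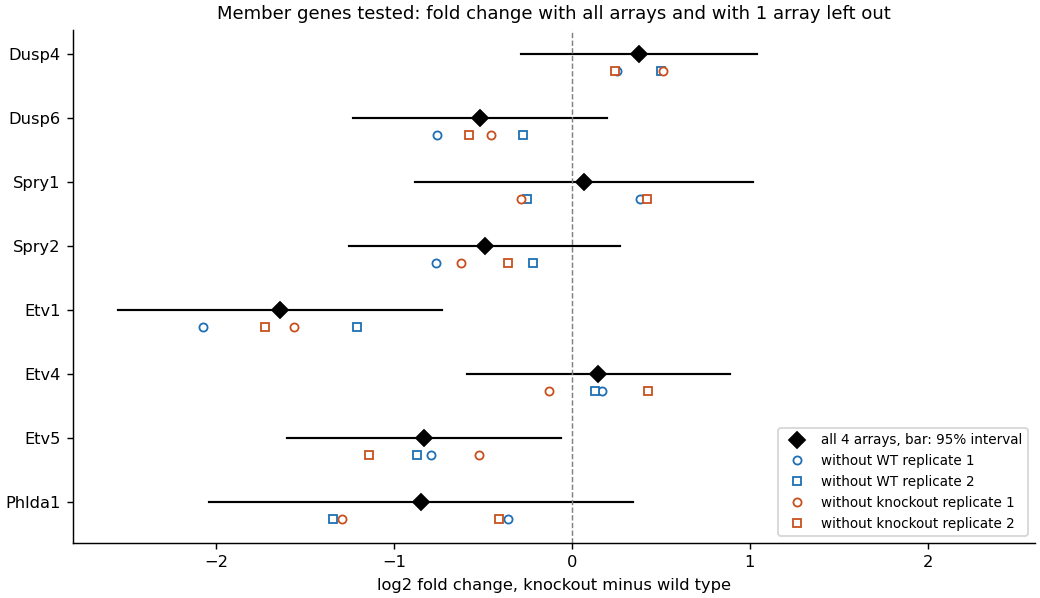
Log2 difference, knockout minus wild type, for the 8 tested members. Black diamonds and bars are the estimate and 95% interval from all 4 arrays, and open symbols below each bar are the estimates with 1 array left out. The interval lies below 0 for Etv1 (-2.55 to -0.73) and Etv5 (-1.60 to -0.063), while the open symbols of Spry1 and Etv4 fall on both sides of 0.

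The arrays of a group were also compared with each other. The median absolute difference between the WT arrays was 0.51 over the 8 members and 0.26 over all tested genes. Between the KO arrays it was 0.42 and 0.32. For Dusp4, Dusp6, Spry2 and Etv1 the lower of the WT arrays was WT 1, and for Spry1, Etv4, Etv5 and Phlda1 it was WT 2.

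Genes that tracked single members over the 4 arrays were found by the root mean square difference of their levels, each gene centred on its mean, among 12166 other genes detected on all arrays. For Etv1 the nearest were Shf, Fblim1 and Tmem82, at distances of 0.090, 0.13 and 0.15, and 12 genes lay within 0.25. Shf encodes an SH2-domain adaptor and Fblim1 a filamin-binding protein of cell adhesions. Shf read -1.57 and -0.78 in WT and -2.85 and -2.53 in KO, a difference of -1.51 ± 0.35 (SE; limma adjusted p = 0.935). For Phlda1 the nearest were Frmpd1, Sox9 and Col9a3 (0.055, 0.082 and 0.082), and 103 genes lay within 0.25. Sox9, a transcription factor of luminal progenitor and basal cells, had levels of 0.93, 0.15, 0.03 and -0.78 across WT 1, WT 2, KO 1 and KO 2. For Dusp6 the nearest were Aldh1a1, Cd34 and Slc43a3 (0.014, 0.015 and 0.018), but 1589 genes lay within 0.25. Levels were centred but not scaled, so a member that varies less tends to have more genes within that distance. The counts therefore do not show how common each pattern was.

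The wider pathway was described by lists of genes with the same roles. Of 7 other MAP kinase phosphatases 6 were tested, 4 were below 0, the median was -0.29 and none passed. The largest difference was that of Dusp2 (1.08 ± 0.93, SE), named here after its values were seen, which was high on KO 2 alone, the array with high lymphocyte markers (0.33, 0.61, 0.10 and 2.99). Dusp10, a phosphatase that acts mainly on p38 and JNK, read -1.39 and -1.31 in WT and -1.91 and -2.35 in KO, a difference of -0.78 ± 0.27 (SE). The immediate early phosphatase Dusp1 read 2.96, 2.15, 2.19 and 1.95, with overlapping groups. Of 12 other Sprouty, Spred and receptor-level inhibitors 9 were tested and none passed. All 9 differences were below 0, against 50.7% of all genes, with a median of -0.36, and the KO arrays were both lower for 4 of the 9, against 17.7% of all genes. Those of Lrig1 (-0.0065) and Cbl (-0.036) were close to 0. Below 0 as well were 9 of 10 markers each of luminal epithelium, fibroblast, endothelium and skeletal muscle. For tested adipocyte, B cell and T cell markers it was 3 of 9, 0 of 4 and 0 of 8. Both KO arrays were lower for 4 of 13 other ERK targets, 4 of 18 cascade genes and 4 of 17 other ETS factors. The same held for 1 of 6 other MAP kinase phosphatases and 1 of 8 FGF genes. Under median scaling, which raised the median of all genes by 0.17, the median of the receptor-level inhibitors was -0.19. Errfi1 (MIG6), which inhibits EGFR and HER2 directly and is itself induced by ERK, read 3.51 and 3.39 in WT and 2.89 and 2.50 in KO. Its difference was -0.76 ± 0.27 (SE; limma adjusted p = 0.935). Spred1, a relative of Sprouty that brings neurofibromin to RAS, differed by -0.39 ± 0.24 (SE), and -0.46 on its second probe. Spred2 was not detected on both arrays of either group.

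Other ERK targets were mixed, with 9 of 13 tested genes below 0, a median of -0.23 and no gene past the test. Epha2, an ephrin receptor gene used in signatures of ERK output, had the largest difference of these 13. It read 1.58 on WT 1, 2.07 on WT 2, 0.41 on KO 1 and 0.56 on KO 2, a difference of -1.34 ± 0.28 (SE; limma adjusted p = 0.935). The immediate early gene Egr1 overlapped between groups, at 2.91, 1.76, 2.53 and 1.79, and was high on the same arrays as Spry1 (WT 1 and KO 1). Ccnd1 had no matched probe.

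The RAS to ERK cascade itself was measured through 18 genes, all tested. They had differences from -0.55 to 0.33 with a median of -0.035, 11 of them below 0, and none passed. Mapk3, an ERK gene, had a difference of 0.23 ± 0.24 (SE), which was -0.0038 with normexp background correction. Of 19 other ETS factors and repressors of the PEA3 genes 17 were tested, with a median of -0.064, 10 below 0 and none past the test. The epithelial ETS factor Ehf, named here after its values were seen, had the largest difference of these, but its levels of 1.37, -0.53, -0.33 and -1.59 overlapped between the groups (-1.38 ± 0.74, SE). Cic, the repressor whose octamer stands in the Etv5 window above, read 0.72 and 0.77 in WT and 1.25 and 0.84 in KO. That difference of 0.30 ± 0.27 (SE) was 0.78 on a dimmer probe that was not detected on WT 2.

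FGF receptors, which use the same feedback genes, were the remaining list. Of 10 FGF receptor and ligand genes 8 were tested, 6 were below 0, the median was -0.19 and none passed. Fgfr2, an FGF receptor of mammary epithelium, differed by -0.51 ± 0.29 (SE) on its brighter probe and by -1.23 ± 0.33 on the dimmer one. Fgfr1 probes disagreed: the brightest gave -0.13 ± 0.35 (SE) and the others -0.29 ± 0.35 and -2.31 ± 0.63. The last of these read -1.69 and -1.05 in WT and -2.78 and -4.57 in KO, and was not detected on KO 2, so that this size is uncertain. What sets these Fgfr1 probes apart is not given in the sources used here.

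**Figure D4:**
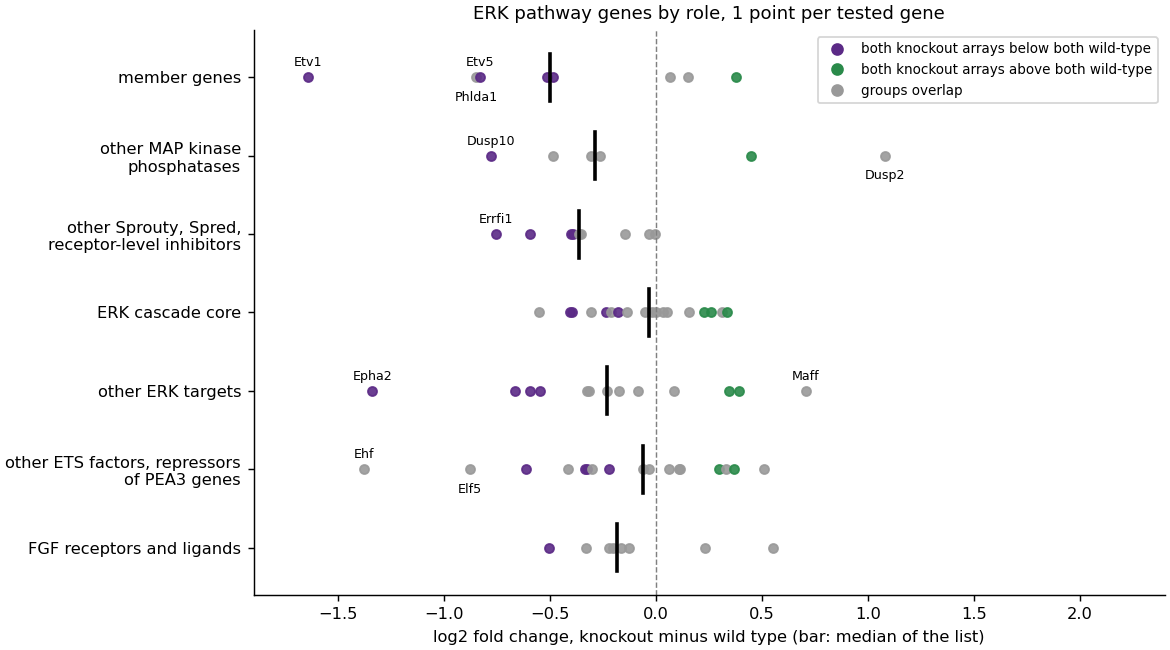
Log2 difference, knockout minus wild type, of each tested gene in the member set and in 6 lists of other ERK pathway genes; 1 point per gene, black bars are list medians, and colour shows whether both KO arrays lay below (purple) or above (green) both WT arrays or overlapped with them (grey). Names mark differences larger than 0.7 in size. The members' median is -0.50 and that of the kinase cascade -0.035; no point passed the test.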

How the data were processed

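Total RNA of 4 mammary gland samples was labelled with Cy3 and hybridised to 1-colour Agilent mouse arrays on 1 slide, scanned once, per the file headers. The authors deposited spot intensity files from the Agilent scanner software Feature Extraction. The file headers give its version as 11.5.1.1, and the submitters' processing notes as 10.7.3.1. Processed intensities are background-subtracted and detrended within an array, per the file headers, which record no step between arrays. The analysis software the labels name is GeneSpring. A deposited table of the authors' log2 values matched quantile-normalized processed signals after subtraction of the median of each probe (Pearson r at least 0.99999), so its scale and direction were settled from the data. A label that names EOC cells disagrees with the others and was not used.

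Here, log2 processed signals were expressed against the 75th percentile of the array (191, 144, 291 and 160 for WT 1, WT 2, KO 1 and KO 2), without control and outlier spots (35 to 73 an array). Accessions matched to RefSeq named 27816 of 41174 probes. KO was compared with WT in limma 3.58.1 (R 4.3.3), adjusting p by Benjamini-Hochberg across the tested probes. The same fit was also run on simulated data with the means of these arrays, their spreads shuffled across probes and independent errors. Shifts shared by many genes on a single array were not simulated, so that run does not test for them. A gene is its brightest probe. Members, lists, tests and alternatives were chosen with earlier results of these data known. Pathway genes were named from a fixed list, with up to 2 more per list at an unadjusted p under 0.05, and the 3 genes nearest in pattern were named for Etv1, Phlda1 and Dusp6 (for Spry4, untested, none). Of these, 1 gene of that fixed list is not reported here. The names drawn in the plot of pathway lists were chosen by size. The normexp alternative (offset 50) used the median spot signal. Alternatives covered scaling, background, filters, the deposited log2 table, the replicate block and each array left out.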

Additional observations from a re-analysis of the deposited data

How the results depend on the processing

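With every array kept, all 72 recomputed differences of the 8 tested members kept their direction and had an adjusted p above 0.05 in limma, over quantile and median scaling, normexp, 2 other filters, outlier spots kept, an intensity trend, the authors' deposited table and the replicate block. Median scaling moved the median of all genes by 0.17 and called 5 genes lower, none of them a member, with a members' median of -0.33, -0.19 for receptor-level inhibitors, 0.14 for the kinase cascade, -0.058 for other ERK targets, 0.11 for other ETS factors, -0.012 for FGF genes and -0.11 for other phosphatases (-0.18 with quantile normalization or the authors' deposited table). Normexp gave -0.34 for the members and -0.25 for receptor-level inhibitors, and quantile normalization and the authors' deposited table each gave -0.012 for other ETS factors. Relative to the luminal markers, an alternative chosen after seeing the data, the members' median was -0.17, and the mean of those markers was low on KO 2 alone. At an unadjusted p under 0.05, 2 members passed (Etv1 and Etv5). Over the 9 alternatives Etv1 stayed below it in 9 (0.00086 to 0.0096) and Etv5 in 4 (quantile scaling, outlier spots kept, probes detected on all arrays and the authors' deposited table). The unadjusted p of Etv5 in limma was 0.103 under median scaling, 0.241 under normexp, 0.0692 without a filter, 0.0869 with an intensity trend and 0.0516 with the replicate block, where Phlda1 had 0.0305. Fgfr1 reversed to 0.048 under median scaling and 0.053 under normexp, and Mapk3 to -0.0038 under normexp. The cause of these moves was not tested.

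With 1 array left out, where the lone array is assumed to vary like the others, 0 genes passed, and 5 to 7 members were below 0. Medians ran from -0.56 to -0.26 for the members, -0.62 to 0.045 for other phosphatases, -0.44 to -0.27 for receptor-level inhibitors, -0.077 to -0.0046 for the cascade, -0.44 to 0.087 for other ERK targets, -0.18 to 0.0015 for other ETS factors and -0.19 to -0.00087 for FGF genes. Single genes that changed sign ranged from -0.29 to 0.42 (Spry1), -0.13 to 0.43 (Etv4), -0.74 to 0.40 (Egr1), -0.52 to 0.26 (Fgfr1) and -1.64 to 0.36 (Stmn1). The labels do not say whether equal replicate numbers link arrays. Differences within the groups correlated at 0.065 across probes, and with the replicate block 0 genes passed, with adjusted p of 0.954 for Etv1 and Etv5. Signal over background limits Spry4 and Etv5.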

Other observations

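Of the 3 genes nearest to the Etv1 pattern, Fblim1 and Tmem82 are neighbours on chromosome 4, which also carries Stmn1, the targeted gene. In the gene order of RefSeq (GRCm38.p6) 122 and 123 protein-coding genes lie between them and Stmn1. Epha2, which had the largest difference among the 13 other ERK targets tested, lies on the same chromosome, with 113 protein-coding genes between it and Stmn1. Fblim1 read -0.77 and -0.21 in WT and -2.36 and -2.17 in KO, and Tmem82 read -1.11, -0.64, -2.71 and -2.47. Of all tested genes 6.06% lie on chromosome 4, and no member does. These genes were singled out after their values were seen, and the number of genes of the stretch that differ was not counted here.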
